A study of Mus musculus with 5 samples.

Results

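The genes described here encode the machinery by which the sarcoplasmic reticulum, the internal calcium store of muscle cells, releases and takes up calcium in each heartbeat. The list held 10 genes (Atp2a2, Pln, Sln, Ryr2, Casq1, Casq2, Hrc, Trdn, Asph and Jph2), chosen by name for their place in this cycle, and was matched by symbol to the deposited table of 12446 genes. Values were read for 9 of the 10. Sln, which encodes sarcolipin, a second inhibitor of the calcium pump, was not analysed here, so the ratio of pump to inhibitor is given for Pln alone.

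RNA was sequenced from cardiomyocytes isolated from the hearts of male C57BL/6 mice. For OSKM-CMs (3 libraries, replicates 1, 2 and 3) the mice had received 4 mixed adeno-associated virus vectors carrying Oct4-His6, Sox2-Flag, Klf4-HA and Myc-V5, the factors used to reprogram cells to pluripotency. For Control-CMs (2 libraries, replicates 3 and 5) they had received the same kind of virus with blue fluorescent protein (BFP). Every vector carried the cTnT promoter, which drives expression in cardiomyocytes. Vectors were injected into the thoracic cavity at 8 weeks of age, and the age of the mice is given as 12 to 14 weeks. Each factor vector was dosed at 2.5 and the BFP vector at 10, on 1 common scale of virus genomes per gram of body weight. Whether the libraries stem from different mice is not stated, so p-values cover only the spread between these samples, which may be technical.

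In each heartbeat, calcium that enters through the transverse tubules opens the ryanodine receptor Ryr2, the release channel, and the released calcium triggers contraction. The pump SERCA2a, made from Atp2a2, then returns calcium to the store, and phospholamban (Pln) holds the pump back until it is phosphorylated. Inside the store, calsequestrin (Casq2 in the heart, Casq1 mainly in skeletal muscle) and the histidine-rich protein Hrc bind calcium, triadin (Trdn) and junctin (a product of Asph) tie calsequestrin to the channel, and junctophilin-2 (Jph2) holds the store against the tubule.

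Reads over the listed genes totalled 2691796 to 2780751 per OSKM-CMs library and 3519628 to 3861805 per Control-CMs library, and 3 reads corresponded to between 0.777 and 1.11 CPM (counts scaled to the library's total). The targeted factors matched the labels: Pou5f1, the gene of Oct4, had 262 to 344 reads and Sox2 254 to 391 reads per OSKM-CMs library, against 0 reads of either in both Control-CMs libraries. Reads of mitochondrial DNA genes took 9.76 to 11.1% of OSKM-CMs libraries and 21.2 to 24.7% of Control-CMs libraries. Of 8 cardiomyocyte markers, 6 fell and 2 did not pass the test, and their summed level was 17564 to 21096 scaled RPKM (reads scaled to gene length and library total, then rescaled between libraries with TMM factors) in OSKM-CMs, against 33216 to 36782 in Control-CMs. With library totals alone in place of TMM factors, 4 of the 8 were lower and 2 higher. Of all tested genes, 5.96% were lower and 36.5% higher on that scale. Of 7 tested fibroblast markers, 4 rose and 3 did not pass, and their summed level was 87.7 to 199 in OSKM-CMs, against 34.5 to 65.7 in Control-CMs. Of 7 mural markers 3 rose, of 7 endothelial markers 2 fell, and the 3 tested leukocyte and 3 tested conduction-system markers did not pass the test. These counts are to be read against 15.9% of all tested genes that rose and 14.3% that fell. With library totals alone, 4 fibroblast and 3 mural markers were higher, and 1 endothelial marker was lower. Of 11 skeletal muscle markers, 1 was listed, with 3 or 4 reads per OSKM-CMs library and 0 in both Control-CMs libraries, so it was listed through OSKM-CMs alone. OSKM-CMs replicate 2 had the most reads of Myh6, a defining cardiomyocyte marker, in its group (50378, against 32613 and 31940 in replicates 1 and 3), and the fewest of the fibroblast gene Postn (503, against 1141 and 1449). The cardiomyocyte markers did not all order the libraries alike. Tnnt2 had its fewest reads in replicate 2 (9699, against 10961 and 10668), and Ttn had fewer there than in replicate 1 (67362, against 71637). The part of these marker shifts in the results below was not tested. In bulk RNA, fewer cells of a type and less RNA per cell cannot be told apart.

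Among the calcium-cycling genes, the pump, its inhibitor, the release channel and the luminal protein Hrc were 2.50-fold to 4.61-fold lower in OSKM-CMs than in Control-CMs, and the tethers and junctophilin-2 were 1.45-fold to 1.60-fold lower. Cardiac calsequestrin was 1.36-fold higher. In all, 7 of the 9 genes fell, 1 rose and 1 did not pass the test (limma, Benjamini-Hochberg adjusted p below 0.05 over the 10915 genes tested), where 14.3% of all tested genes fell and 15.9% rose. The median log2 fold change was −0.69 over the 9 genes and 0.022 over all tested genes. The groups did not overlap for 8 of the 9 genes, as was the case for 57.9% of all tested genes, and in the deposited RPKM for 6 of the 9, against 65.2% of all. With no spread borrowed between genes, 4 of the 9 fell (Atp2a2, Pln, Ryr2 and Asph), where 4.61% of all genes fell and 5.17% rose, and the other changes missed the threshold (limma adjusted p = 0.0713 for Casq2, 0.0791 for Hrc, 0.0871 for Trdn and 0.139 for Jph2). Without OSKM-CMs replicate 2, 7 of the 9 fell and 1 rose, with log2 fold changes of −1.46 for Atp2a2, −2.62 for Hrc, −0.85 for Jph2 and 0.48 for Casq2. Leaving out any of the other 4 libraries ended the call of Casq2, and the number of genes that fell was 5 without OSKM-CMs replicate 1, 5 without OSKM-CMs replicate 3, 6 without Control-CMs replicate 3 and 4 without Control-CMs replicate 5. Together the 9 genes took 1.60, 1.84 and 1.52% of the reads in the OSKM-CMs libraries and 2.93 and 2.77% in the Control-CMs libraries.

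**Figure D1:**
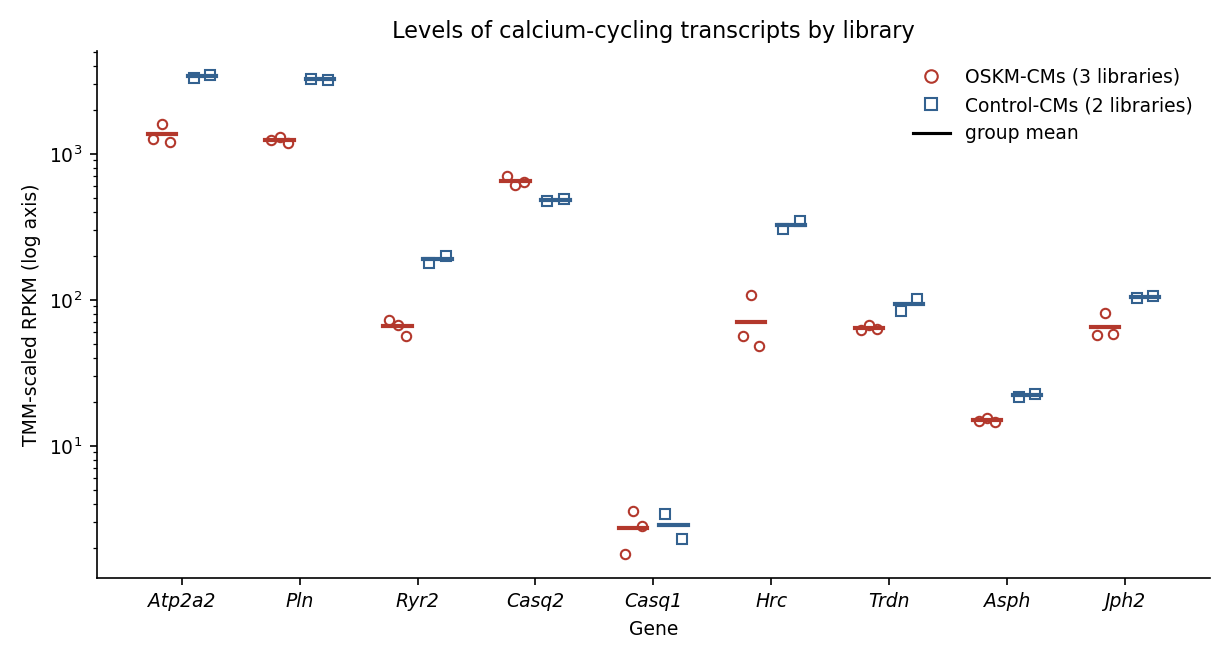
TMM-scaled RPKM (log axis) of the 9 genes in each library, with OSKM-CMs as red circles (3 libraries), Control-CMs as blue squares (2 libraries) and bars at the group means. The circles lie below the squares for 7 genes, above them for Casq2, and among them for Casq1.

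The pump and its inhibitor were among the most abundant transcripts of both groups. Atp2a2 (ENSMUSG00000029467.8) stood at 1267, 1610.1 and 1199.9 scaled RPKM in OSKM-CMs replicates 1, 2 and 3, against 3303 and 3481 in Control-CMs replicates 3 and 5. Every OSKM-CMs library was far below both Control-CMs libraries, and replicate 2 was the highest of its group. The means were 1359 ± 220.0 (SD, n = 3) and 3392 ± 125 (SD, n = 2), a log2 fold change of −1.33 (SE 0.15, limma, Benjamini-Hochberg adjusted p = 0.000804). Its rank by level among the 12446 listed genes was 33 in OSKM-CMs and 24 in Control-CMs, and 256 genes (2.35% of those tested) had a log2 fold change at or below it.

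Pln (ENSMUSG00000038583.6), the phospholamban gene, had 1234, 1309 and 1176 scaled RPKM in OSKM-CMs, against 3258 and 3225 in Control-CMs. Its libraries lay close together within each group, with a coefficient of variation of 5.37% in OSKM-CMs and 0.708% in Control-CMs, and the groups were far apart. The means of 1239.9 ± 66.6 (SD, n = 3) and 3242 ± 22.9 (SD, n = 2) gave a log2 fold change of −1.39 (SE 0.11, limma, Benjamini-Hochberg adjusted p = 0.000208). Pln fell 2.61-fold, next to 2.50-fold for the pump it inhibits. Cep85l, a protein-coding gene on the opposite strand, overlaps Pln in the GENCODE annotation of GRCm38, and the strand setting of the counting is not given in the sources used here, so reads of the 2 genes cannot be told apart where they overlap. Atp2a2 (with Gm43361), Ryr2 (with Gm26956), Asph (with Clvs1), Trdn (with D830005E20Rik and others) and Casq1 (with Gm17224) likewise overlap a gene on the opposite strand. The overlapping genes, Cep85l included, were not analysed here.

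Within each library, the ratio of pump to inhibitor stayed near 1. Atp2a2 to Pln was 1.03, 1.23 and 1.02 (RPKM over RPKM) in OSKM-CMs, against 1.01 and 1.08 in Control-CMs. The groups overlapped, and replicate 2 of OSKM-CMs was the highest of the 5 libraries. The mean ratios were 1.09 ± 0.119 (SD, n = 3) and 1.05 ± 0.0461 (SD, n = 2), and the difference did not pass a 2-sided exact permutation test over libraries (p = 0.8, where the smallest p that 3 against 2 libraries allow is 0.2). The log2 difference in the ratio was 0.057, and it was −0.032 without OSKM-CMs replicate 2. In a limma fit of every gene relative to Atp2a2 with no spread borrowed between genes, the fold change of Pln relative to Atp2a2 was 0.961, with a 95% interval of 0.740 to 1.25 (Benjamini-Hochberg adjusted p = 0.675). That interval does not show that the ratio was the same in both groups.

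The message of the release channel fell by more than those of Trdn, Asph and Jph2. Ryr2 (ENSMUSG00000021313.8) was measured at 73.2, 67.3 and 56.6 scaled RPKM in OSKM-CMs, against 179.7 and 201 in Control-CMs. The lowest Control-CMs library was above the highest OSKM-CMs library by more than the whole spread within either group. The means of 65.7 ± 8.42 (SD, n = 3) and 190.3 ± 15.1 (SD, n = 2) differed by −1.53 on the log2 scale (SE 0.14, limma, Benjamini-Hochberg adjusted p = 0.000389), a 2.90-fold fall.

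Triadin, junctin and junctophilin-2 belong to the junction in which Ryr2 sits. Trdn (ENSMUSG00000019787.7) had 61.8, 67.6 and 63.4 scaled RPKM in OSKM-CMs, against 84.3 and 102 in Control-CMs, a log2 fold change of −0.52 (SE 0.12, limma, Benjamini-Hochberg adjusted p = 0.0175). The groups did not overlap on this scale, but they did in the deposited RPKM, at 68.6, 75.8 and 72.1 in OSKM-CMs and 74.5 and 81.4 in Control-CMs. The call was lost without OSKM-CMs replicate 1 (adjusted p = 0.0615), OSKM-CMs replicate 3 (adjusted p = 0.0578) or Control-CMs replicate 5 (adjusted p = 0.112). Asph (ENSMUSG00000028207.11) had 14.8, 15.5 and 14.5 scaled RPKM in OSKM-CMs, against 21.6 and 22.7 in Control-CMs, and fell 1.48-fold (log2 fold change −0.54, SE 0.12, limma, Benjamini-Hochberg adjusted p = 0.0122). All 3 OSKM-CMs libraries were below both Control-CMs libraries, and the call was lost without Control-CMs replicate 5 (adjusted p = 0.0653). The Asph locus makes aspartate beta-hydroxylase as well as junctin, from 20 annotated transcripts of which 15 are coding, and a count per gene does not separate them.

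Jph2 (ENSMUSG00000017817.4) had 57.1, 81.1 and 57.9 scaled RPKM in OSKM-CMs, against 103 and 106 in Control-CMs. OSKM-CMs replicate 2 was again the highest of its group, yet stayed below both Control-CMs libraries. The means were 65.4 ± 13.6 (SD, n = 3) and 105 ± 2.36 (SD, n = 2), with a log2 fold change of −0.69 (SE 0.17, limma, Benjamini-Hochberg adjusted p = 0.0186). In the deposited RPKM the groups overlapped, at 63.4, 91.0 and 65.9 in OSKM-CMs and 91.1 and 84.9 in Control-CMs. The adjusted p lay between 0.0644 and 0.0835 when OSKM-CMs replicate 1, OSKM-CMs replicate 3, Control-CMs replicate 3 or Control-CMs replicate 5 was left out.

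The luminal calcium binders moved in opposite directions. Casq2 (ENSMUSG00000027861.6), cardiac calsequestrin, had 708, 614 and 638 scaled RPKM in OSKM-CMs, against 477 and 487 in Control-CMs. All 3 OSKM-CMs libraries were above both Control-CMs libraries, also in the deposited RPKM. The means were 654 ± 48.8 (SD, n = 3) and 482 ± 6.98 (SD, n = 2), a log2 fold change of 0.44 (SE 0.11, 95% interval 0.18 to 0.69, limma, Benjamini-Hochberg adjusted p = 0.0215). Its rank by level was 72 in OSKM-CMs and 120 in Control-CMs. The adjusted p was 0.0815 without OSKM-CMs replicate 1, 0.0648 without OSKM-CMs replicate 3, 0.0758 without Control-CMs replicate 3 and 0.0642 without Control-CMs replicate 5, so the call rests on having nearly all libraries, while the log2 fold change kept between 0.38 and 0.48.

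Hrc (ENSMUSG00000038239.8), which binds calcium in the lumen and also contacts the pump and triadin, had the largest fold change of the 9 genes. Its level was 56.9, 107 and 47.9 scaled RPKM in OSKM-CMs, against 307 and 345 in Control-CMs. OSKM-CMs replicate 2 was far above the other 2 libraries of its group, yet well below both Control-CMs libraries. The means of 70.6 ± 31.9 (SD, n = 3) and 326 ± 26.7 (SD, n = 2) differed 4.61-fold (log2 fold change −2.28, SE 0.33, limma, Benjamini-Hochberg adjusted p = 0.00462). The coefficient of variation within OSKM-CMs was 45.1%, where counting error alone would give 4.36%. Only 40 genes, 0.366% of those tested, had a log2 fold change at or below that of Hrc.

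Casq1 (ENSMUSG00000007122.4), the calsequestrin of skeletal muscle, was read seldom, with 11, 22 and 17 reads in OSKM-CMs and 21 and 14 reads in Control-CMs. Its scaled RPKM was 2.74 ± 0.887 (SD, n = 3) in OSKM-CMs and 2.87 ± 0.794 (SD, n = 2) in Control-CMs, and the libraries of the groups overlapped. The log2 fold change of −0.063 had a 95% interval of −0.64 to 0.52 (limma, Benjamini-Hochberg adjusted p = 0.872), so a change within that interval could not be told from the spread between libraries. Casq2 made up 99.4 to 99.7% of the summed calsequestrin RPKM in OSKM-CMs libraries and 99.3 and 99.5% in Control-CMs libraries.

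The scaling between libraries bears on the size of every one of these changes. TMM factors were 1.11 to 1.14 in OSKM-CMs and 0.798 to 0.884 in Control-CMs. With library totals alone, the median log2 fold change of all tested genes was 0.36, and 5.96% of genes were called lower and 36.5% higher. With these, on the log2 scale, Atp2a2 fell by 0.91, Pln by 0.97, Ryr2 by 1.11 and Hrc by 1.86 (limma, Benjamini-Hochberg adjusted p = 0.00122, 0.000251, 0.000407 and 0.00801 in that order), and Casq2 rose by 0.86 (adjusted p = 0.000533). Trdn, Asph and Jph2 no longer passed, with log2 fold changes of −0.11, −0.14 and −0.28 (adjusted p = 0.478, 0.396 and 0.214). Measured from the median of all genes instead, these 3 genes stood at −0.47, −0.50 and −0.63. The authors' deposited table gave log2 fold changes of −2.20 for Hrc, −1.54 for Ryr2, −1.39 for Pln, −1.32 for Atp2a2, −0.68 for Jph2, −0.57 for Asph, −0.54 for Trdn, −0.087 for Casq1 and 0.44 for Casq2.

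**Figure D2:**
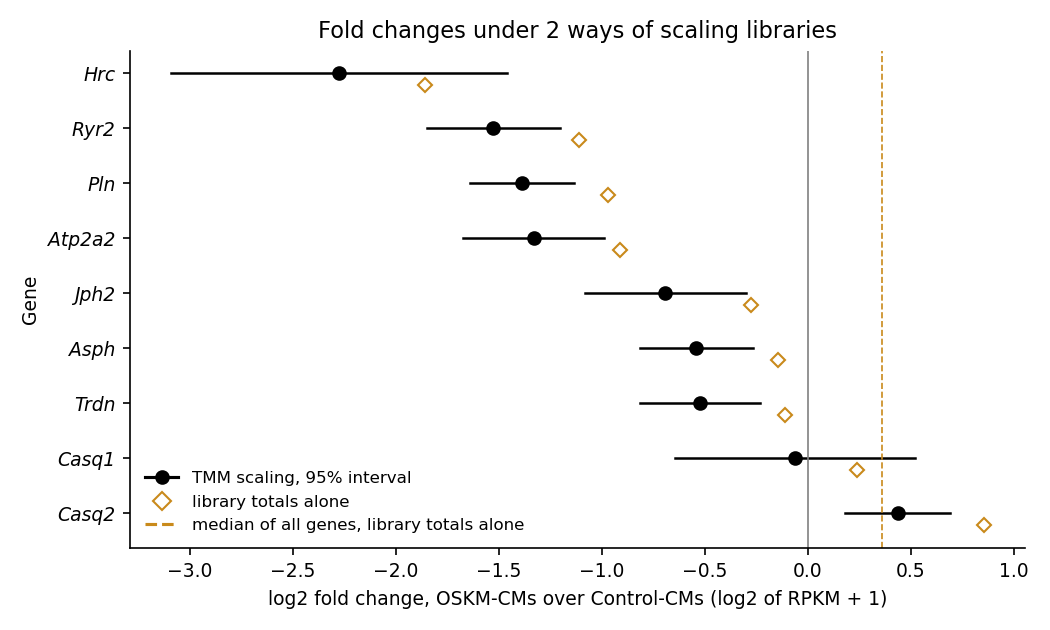
Log2 fold change of each gene, OSKM-CMs over Control-CMs, with TMM scaling (black points, 95% interval) and with library totals alone (open diamonds), and the median of all genes with library totals alone at 0.36 (dashed line). The order of the 9 genes is the same on both scales, from Hrc at −2.28 and −1.86 to Casq2 at 0.44 and 0.86.

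Ratios within a library do not depend on the scaling. Atp2a2 to Ryr2 was 17.3, 23.9 and 21.2 in OSKM-CMs, against 18.4 and 17.3 in Control-CMs, so pump and release channel kept overlapping proportions. Casq2 to Ryr2 was 9.68, 9.12 and 11.3 in OSKM-CMs, against 2.65 and 2.42 in Control-CMs, and Casq2 to Atp2a2 was 0.559, 0.381 and 0.532 against 0.144 and 0.140. The calsequestrin message per release-channel message was thus 3.94-fold higher on average in OSKM-CMs, and per pump message 3.41-fold higher, with no overlap between the groups for either ratio. Trdn to Ryr2 was 0.845, 1.004 and 1.12 in OSKM-CMs, against 0.469 and 0.508 in Control-CMs. Asph to Ryr2 was likewise higher in every OSKM-CMs library, at 0.202, 0.230 and 0.257 against 0.120 and 0.113, while Asph to Trdn overlapped (0.240, 0.229 and 0.230 against 0.257 and 0.223). Hrc to Ryr2 was 0.778, 1.59 and 0.847 in OSKM-CMs, against 1.71 and 1.72 in Control-CMs. Of 14 ratios computed, 10 had groups that did not overlap. The pairs were chosen by hand and share genes, and the share over all gene pairs was not computed. By level alone, the groups did not overlap for 57.9% of all tested genes in scaled RPKM. None of the 14 ratios can pass 0.05 in an exact permutation test over 3 against 2 libraries (smallest p = 0.2, Benjamini-Hochberg adjusted p = 0.28).

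**Figure D3:**
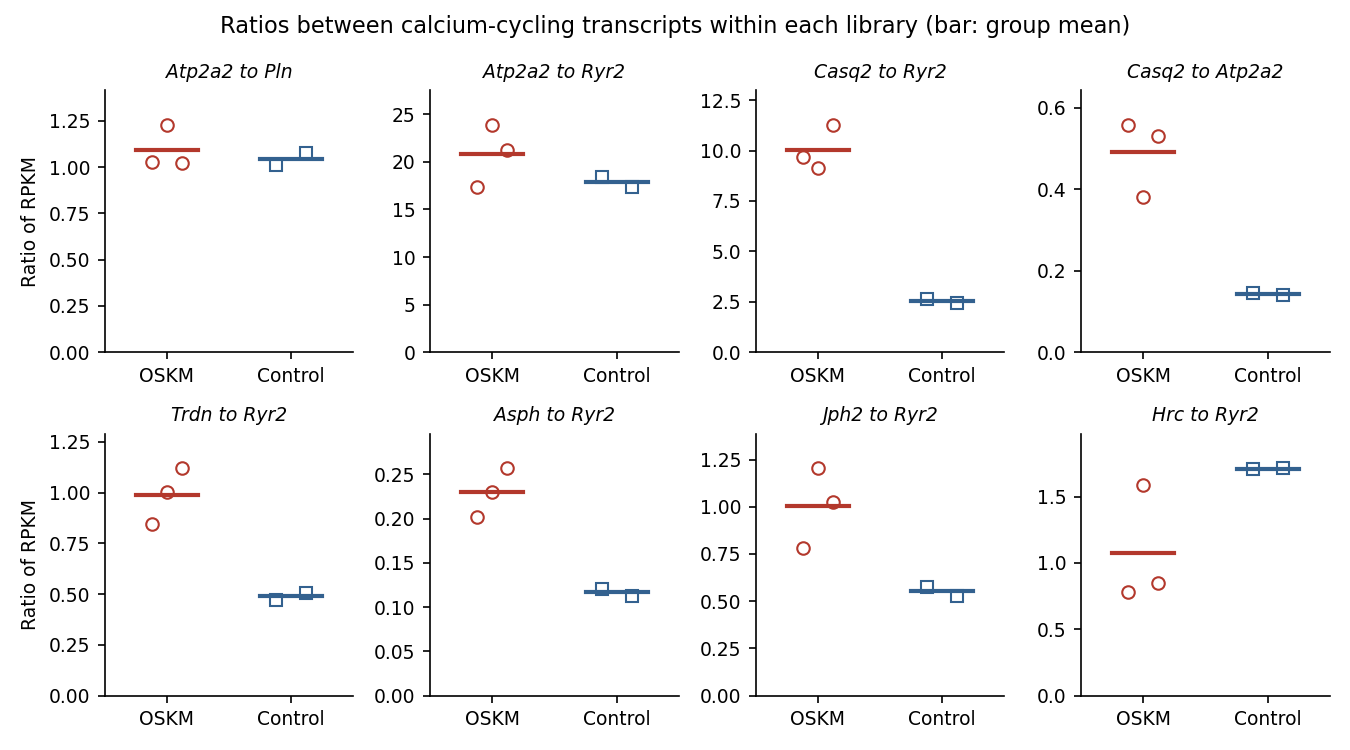
RPKM ratios between pairs of genes within each library (OSKM-CMs as red circles on the left of each panel, Control-CMs as blue squares on the right, bars at the group means, axes from 0). Atp2a2 to Pln and Atp2a2 to Ryr2 overlap between the groups, while Casq2 to Ryr2 is 9.12 to 11.3 in OSKM-CMs and 2.42 to 2.65 in Control-CMs.

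To test whether a gene's change differed from that of the pump or of the channel, every gene was refitted relative to Atp2a2 and relative to Ryr2. Subtracting 1 gene gives every other gene that gene's own library noise, so p-values that borrow spread between genes are too small, and those given here borrow none. Relative to Ryr2, Casq2 differed 3.90-fold (95% interval 2.95 to 5.15, limma, Benjamini-Hochberg adjusted p = 0.00867). Trdn, Asph, Jph2 and Casq1 also differed from Ryr2, by 1.003, 0.99, 0.84 and 1.46 on the log2 scale (adjusted p = 0.0139, 0.0115, 0.0445 and 0.0441). Relative to Atp2a2 the same 5 genes differed, with log2 differences of 0.64 for Jph2 to 1.77 for Casq2 (adjusted p = 0.0140 to 0.0284). Hrc did not pass in either fit (adjusted p = 0.0542 relative to Atp2a2 and 0.176 relative to Ryr2), and neither did Pln, nor Ryr2 relative to Atp2a2 (fold 0.873, 95% interval 0.591 to 1.29). That 5 of 8 genes differed is to be read against 80.6% of all genes that differed from Atp2a2 and 87.5% that differed from Ryr2. With spread borrowed, 6 of the 8 differed in each fit, Hrc being the sixth, where 91.3% and 95.3% of all genes did.

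With TMM scaling, 6 of the 8 cardiomyocyte markers fell as well, so the levels were also set against these markers. Per 1000 RPKM of the 8 summed cardiomyocyte markers, Atp2a2 stood at 72.2, 76.3 and 64.4 in OSKM-CMs, against 99.4 and 94.6 in Control-CMs. On this measure the OSKM-CMs to Control-CMs ratio of means was 0.731 for Atp2a2, 0.701 for Pln, 0.637 for Ryr2 and 0.390 for Hrc, and it was 1.13 for Jph2, 1.24 for Asph, 1.27 for Trdn, 1.70 for Casq1 and 2.51 for Casq2. The groups did not overlap for any of the 9 genes on this measure, and no test was made of it. The share of all genes without overlap on this measure was not computed. The summed markers themselves separated the groups, so this count is not a trait of these genes. The measure depends on which markers enter the sum: Actc1 (log2 fold change 0.034) and Actn2 (0.22) did not pass the test. Tnnt2 (−0.60) and Ttn (−0.61) fell by less than Atp2a2 (−1.33), while Mb (−1.58), Tnni3 (−1.31), Myh6 (−1.31) and Myl2 (−1.26) had log2 fold changes closer to it. Atrial and ventricular markers, which differ in their calcium-handling proteins, moved differently: 3 of 4 ventricular markers fell, while of 6 tested atrial markers 2 rose (Myl7 and Nppa), 2 fell and 2 did not pass. With library totals alone, 2 ventricular markers were lower, and 2 atrial markers were higher and 1 lower. Their part in the results was not tested.

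The promoters of 4 of these genes are shown because they include the gene that rose beside genes that fell. Each is the 250 bases before the RefSeq start on GRCm38.p6, printed 5′ to 3′ on the strand of the gene, and capitals mark matches to the motifs named below. The positions are Casq2 at chr3:102086165-102086414 (plus strand), Pln at chr10:53337436-53337685 (plus strand), Hrc at chr7:45335019-45335268 (plus strand) and Ryr2 at chr13:12106946-12107195 (minus strand).
Casq2: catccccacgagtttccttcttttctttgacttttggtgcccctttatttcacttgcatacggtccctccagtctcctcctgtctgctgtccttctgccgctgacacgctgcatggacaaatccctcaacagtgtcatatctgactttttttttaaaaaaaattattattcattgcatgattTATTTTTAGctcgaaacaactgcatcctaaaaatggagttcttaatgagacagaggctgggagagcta
Pln: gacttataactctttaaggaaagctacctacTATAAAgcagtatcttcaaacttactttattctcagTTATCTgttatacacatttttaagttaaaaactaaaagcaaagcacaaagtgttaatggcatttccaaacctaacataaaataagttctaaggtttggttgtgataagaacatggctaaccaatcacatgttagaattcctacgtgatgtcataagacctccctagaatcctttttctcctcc
Hrc: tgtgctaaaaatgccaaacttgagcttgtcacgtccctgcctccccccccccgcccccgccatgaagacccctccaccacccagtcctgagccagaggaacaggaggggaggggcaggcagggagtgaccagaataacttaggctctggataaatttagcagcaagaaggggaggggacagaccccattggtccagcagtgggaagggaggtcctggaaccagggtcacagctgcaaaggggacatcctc
Ryr2: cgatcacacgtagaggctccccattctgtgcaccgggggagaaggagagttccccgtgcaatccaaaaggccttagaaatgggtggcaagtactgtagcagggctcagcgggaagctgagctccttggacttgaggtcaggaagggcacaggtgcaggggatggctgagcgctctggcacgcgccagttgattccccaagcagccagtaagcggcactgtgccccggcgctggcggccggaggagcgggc

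On both strands these windows were searched for CACGTG (the E-box bound by Myc), ATGCAAAT (the octamer bound by Oct4), ACAATG (a Sox core), GGGTGTG (a Klf4 core), TATAAA (the TATA box), AGATAA (the core of Gata sites), CATTCC (the MCAT element) and CTAAAAATA (a Mef2 site). Casq2 held the Mef2 site on the reverse strand, starting 68 bases before the start, a motif found in 0.469% of all 32851 promoters of the same length. Pln held TATAAA at 219 bases and AGATAA, on the reverse strand, at 183 bases before the start, which 12.4% and 9.99% of all promoters hold. None of the 8 motifs was found in the Hrc or Ryr2 window. For the factor motifs the shares of all promoters were 6.02% (CACGTG), 1.60% (ATGCAAAT), 10.7% (ACAATG) and 6.93% (GGGTGTG). A match is a description of letters in the window and not a binding site.

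The paralogues of these genes were low in both groups. Ryr3, a ryanodine receptor of low abundance in the heart, had 56, 55 and 41 reads in OSKM-CMs, against 4 and 9 in Control-CMs. The ratio of its pooled reads, each group's set against its TMM-scaled totals, was 7.82 (95% exact counting interval 4.44 to 15.02), though Ryr3 lay under the level minimum of the main test (without that minimum, limma, Benjamini-Hochberg adjusted p = 0.00884). Ryr1, the skeletal muscle receptor, had 16 reads over the OSKM-CMs libraries and 4 over the Control-CMs libraries, a ratio of 2.67 with a counting interval of 0.863 to 11.0. Ryr1 reached 1 CPM only in OSKM-CMs libraries and was listed only through them, so the listing itself favours a ratio above 1. Atp2a3, another calcium pump, did not pass (log2 fold change 0.20, limma, Benjamini-Hochberg adjusted p = 0.575). Jph1, the junctophilin of skeletal muscle, fell to 5.48 ± 0.417 scaled RPKM (SD, n = 3) in OSKM-CMs, against 8.93 ± 0.254 (SD, n = 2) in Control-CMs (log2 fold change −0.62, limma, Benjamini-Hochberg adjusted p = 0.0142), a call lost with library totals alone (adjusted p = 0.221) and without Control-CMs replicate 3 (adjusted p = 0.0616).

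Among 20 tested partners of release and of the lumen, 5 rose, 3 fell and 12 did not pass, with a median log2 fold change of 0.20, where 15.9% of all tested genes rose and 14.3% fell. Tmem38a, a potassium channel of the store membrane, fell to 129 ± 14.6 scaled RPKM in OSKM-CMs, against 229 ± 0.769 in Control-CMs (log2 fold change −0.83, limma, Benjamini-Hochberg adjusted p = 0.00262). Its call was lost with no spread borrowed between genes (adjusted p = 0.0528). Reep5, which shapes the reticulum membrane, fell by 0.85 on the log2 scale (adjusted p = 0.00721), a call lost with library totals alone (adjusted p = 0.0676). Sepn1, a selenoprotein of the reticulum, rose to 4.90 ± 0.918 scaled RPKM in OSKM-CMs, against 1.97 ± 0.9997 in Control-CMs (log2 fold change 1.02, adjusted p = 0.0186), a call that was lost without OSKM-CMs replicate 1 (0.0694) or Control-CMs replicate 5 (0.0919). Fkbp1a, the FK506-binding protein that attaches to ryanodine receptors, rose by 0.65 on the log2 scale (adjusted p = 0.0157), and was lost without OSKM-CMs replicate 3 (0.0567), Control-CMs replicate 3 (0.0631) or Control-CMs replicate 5 (0.0574). Calu, a luminal calcium-binding protein, rose by 0.59 (adjusted p = 0.0112) and was lost without Control-CMs replicate 3 (0.0549). Jsrp1, which binds the junction, rose by 0.91 on 2 to 12 reads per library (adjusted p = 0.0402). It reached 1 CPM only in OSKM-CMs libraries, so it was listed only through the group where it was high. The call was lost without OSKM-CMs replicate 2 (0.0694) or replicate 3 (0.0736) and with limma voom (0.144). It was also lost with a pseudocount of 5 (0.0594) and with no spread borrowed between genes (0.169). Without Control-CMs replicate 3 or 5 the log2 fold change of Jsrp1 was 0.90 or 0.91, and the call did not hold. With library totals alone this list counted 10 higher and 1 lower, where 36.5% of all genes were higher and 5.96% lower.

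The enzymes that add or remove phosphate on phospholamban and the release channel, with their anchors and inhibitors, held 28 tested entries, of which 11 fell, 2 rose and 15 did not pass, where 14.3% of all tested genes fell and 15.9% rose. The median log2 fold change was −0.11, against 0.022 over all tested genes, and with library totals alone it was 0.28 (3 lower and 9 higher), against 0.36 over all genes. Ppp2r5a, a regulatory subunit of protein phosphatase 2A, fell to 21.4 ± 2.15 scaled RPKM in OSKM-CMs, against 50.1 ± 0.260 in Control-CMs (log2 fold change −1.20, limma, Benjamini-Hochberg adjusted p = 0.000683). Ppp1r3a, which targets protein phosphatase 1, fell by 0.86 on the log2 scale (adjusted p = 0.00146). Hspb6, the small heat shock protein that inhibits protein phosphatase 1, fell by 1.32 (adjusted p = 0.0124), and was lost without Control-CMs replicate 3 (0.0540) or Control-CMs replicate 5 (0.0545). Speg, a kinase that acts on the pump and Jph2, fell by 0.84 (adjusted p = 0.00877), and was lost with library totals alone (0.0583) or without Control-CMs replicate 5 (0.0585). Akap6, an anchor for protein kinase A, rose by 0.62 on the log2 scale (adjusted p = 0.00457).

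Of 11 tested genes of the transverse tubule and the dyad, 3 fell, 1 rose and 7 did not pass, where 14.3% of all tested genes fell and 15.9% rose. The median log2 fold change was −0.21, and with library totals alone it was 0.18 (2 lower and 4 higher), both below the median of all genes on the same scale (0.022 and 0.36). Tcap, the titin cap, fell to 262 ± 63.0 scaled RPKM in OSKM-CMs, against 1067 ± 44.8 in Control-CMs (log2 fold change −2.05, limma, Benjamini-Hochberg adjusted p = 0.000419). Cmya5, a protein of the dyad, fell by 1.08 on the log2 scale (adjusted p = 0.00203), a call lost with no spread borrowed between genes (0.0632). Ank2, an ankyrin, fell by 0.43 (adjusted p = 0.0444). The call of Ank2 was lost with library totals alone (0.813) and without OSKM-CMs replicate 1 (0.130) or replicate 3 (0.104). It was also lost without trend and robust fitting (0.0576) and with no spread borrowed between genes (0.0791). Without Control-CMs replicate 3 or 5 the log2 fold change of Ank2 was −0.47 or −0.40, and the call did not hold. Dnm2, dynamin-2, rose by 0.62 on the log2 scale (adjusted p = 0.0138), which was lost without OSKM-CMs replicate 1 (0.0526) or Control-CMs replicate 3 (0.0780).

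**Figure D4:**
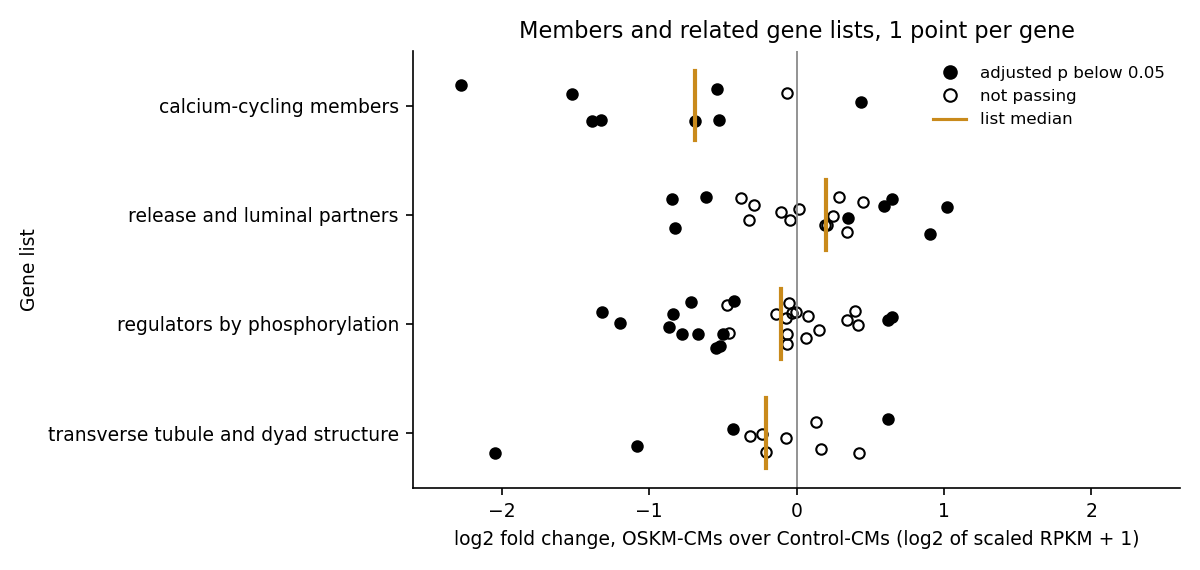
Log2 fold change, OSKM-CMs over Control-CMs, of the 9 calcium-cycling genes and of 3 related gene lists (1 point per gene, filled where the adjusted p is below 0.05, vertical bar at the list median). The calcium-cycling genes have a median of −0.69 and the other lists medians of 0.20, −0.11 and −0.21.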

How the data were processed

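Bulk RNA sequencing of cardiomyocytes was compared between OSKM-CMs (3 libraries) and Control-CMs (2 libraries), grouped by their titles. The genome build mm9 and the tools STAR 2.5.3, HTSeq, Trimmomatic, FastQC and CASAVA 1.8.2 are listed, per the submitters' processing notes; the annotation and strand setting are not given in the sources used here. The authors' library values were taken as RPKM, which no header states and which was worked out from the numbers themselves. The deposited table also gave the authors' log2 fold change and average log2 abundance, a likelihood-ratio score, and a p-value with its FDR, per the file headers. All 12446 listed genes had at least 1 CPM (count scaled to the library total) in at least 2 libraries; other genes were not analysed here.

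Whole reads were recovered from the RPKM of all listed genes (100%, within 0.0001 reads). For 440 genes a common factor was settled from the average abundance, and reads summed to the library totals within 5 reads. TMM factors (30% of log ratios and 5% of abundances trimmed) were computed from these reads. Log2(scaled RPKM + 1) was fitted for the 10915 genes whose RPKM averaged 1 or more with limma 3.58.1 (R 4.3.3, trend, robust empirical Bayes), with 2-sided Benjamini-Hochberg adjusted p at 0.05. The added 1 understates log2 changes of low genes. Folds are ratios of mean scaled RPKM. Counting intervals are exact, cover counting error only, and have a level of 95%. In simulated data scaled by library totals, the limma fit called 32% of 1.5-fold and 88% of 2-fold changes, with 11 unchanged genes among 169 calls. The simulation gave all genes the same spread and changed few genes, all well read and equally often up and down. It therefore does not give the power or the share of false calls of the main test on these data.

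The genes and lists were chosen with earlier results of these data known, by a rule that names every member and paralogue and, per list, up to 4 genes in each direction with the largest change among those called; 1 gene that the rule names is not reported here. Promoters come from RefSeq (GRCm38.p6), which gave one or more for 6 of the 10 genes. Fits without shared spread and limma voom on the recovered reads were added after seeing the data.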

Additional observations from a re-analysis of the deposited data

How the results depend on the processing

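Atp2a2, Pln and Ryr2 stayed called lower in all alternatives run, with log2 fold changes between −1.46 and −1.25, −1.43 and −1.35, and −1.61 and −1.42 when each library was left out, and Hrc (−2.62 to −2.04) in all but the fit with no spread borrowed between genes (adjusted p = 0.0791). With library totals alone, 4 members were called lower in place of 7, and 3985 genes were called higher and 650 lower in place of 1740 and 1558. With no spread borrowed between genes, 4 members were called lower and 0 higher (Casq2 adjusted p = 0.0713), and 564 genes higher and 503 lower. Without trend and robust fitting, Casq2 had an adjusted p of 0.0546, so 0 members were called higher in place of 1. Leaving out each library in turn gave 4 to 7 members lower, 0 to 1 higher, 1169 to 1596 genes higher and 966 to 1484 lower. Fewer samples enter these fits. The log2 difference in the Atp2a2 to Pln ratio ranged from −0.032 to 0.10, and its sign turned to −0.032 without OSKM-CMs replicate 2. Casq1, never called, ranged from −0.27 to 0.15 with a library left out, and turned to 0.24 with library totals alone, 0.13 without OSKM-CMs replicate 1 and 0.15 without Control-CMs replicate 3. Library totals moved the median of all genes to 0.36, and Casq1 stood at −0.12 relative to it; for the left-out libraries the cause was not tested. Of the named genes' results, 27 kept their side with median-of-ratios scaling, with no filter, with a pseudocount of 0.1 and with TMM without mitochondrial DNA genes. With library totals alone, 19 kept their side, 7 lost their call and 1 turned. Without OSKM-CMs replicate 1, 6 lost their call and 1 turned, and without OSKM-CMs replicate 3, 6 lost their call. Some also lost their call when either Control-CMs library was left out. With borrowed spread, 6 of 8 members differed from Atp2a2 and from Ryr2, and 5 of 8 without it, where 11 of the 27 named genes' results kept their side and 16 lost their call; of all genes, 91.3% and 95.3% differed with it. Ratios to Sln were not run, because Sln was not analysed here. No paired analysis was run, because the sample titles name no pairs between the groups. Few reads limit the precision for Casq1, Ryr1, Ryr3, Atp2a3 and Jsrp1, among others.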

Other observations

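Genes whose levels followed those of a member most closely over the 5 libraries were found by the SD of the log2 ratio of scaled RPKM, among 2093 genes with a mean of at least 20. The libraries are shared by all genes and differ mainly by group, so this is a description. Closest to Atp2a2 were Acadvl (SD 0.0366) and Etfdh (0.0376), both of mitochondrial fatty acid oxidation, then 0610009O20Rik (0.0603) and Tnni3, cardiac troponin I (0.0649), whereas Pln stood at 0.117. Acadvl averaged 109 scaled RPKM in OSKM-CMs and 279 in Control-CMs. Closest to Ryr2 were Vldlr, a lipoprotein receptor (0.0633), Hopx, a homeodomain protein of the heart (0.0703), Gm13340 (0.0762) and mt-Co1, a mitochondrial DNA gene (0.0870). Closest to Casq2 were Rabep1 (0.0271), Hnrnpf (0.0355), Eif3g (0.0436) and Actr1b (0.0517), which serve endosomes, RNA processing, translation and dynactin.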
